A study of Homo sapiens with 8 samples.

Results

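T030274 and T030275 are a pair of antisense lncRNA transcripts annotated on the minus strand of chromosome 1, here taken as PROX1 antisense targets, and each was targeted with its own set of sgRNAs in a pooled CRISPRi screen. Members were chosen by target ID, with the change of their sgRNAs between the start and the end of the screen already known. They are 2 of 957 lncRNA targets, and they hold 16 of the 6389 targeting sgRNAs, 9 for T030274 and 7 for T030275. The screen was made in SW620, an established colorectal cancer cell line, carrying a virally delivered dCas9/KRAB fusion in all samples. The libraries fall into 4 before screening (day 0, labelled control) and 4 after screening, for which the sample titles give day 17 and the culture time is given as 18 days. The methods describe separate infections of these cells with the lentiviral library followed by puromycin selection, so the replicates are infections of a single cell line and hold no second line or clone. Total counts ran from 3417248 to 3999875 per library, and the abundance of an sgRNA is given as RPM, its counts per 1000000 counts of the library, so that 1 count was worth between 0.25 and 0.293 RPM. The sgRNA region was amplified by PCR, no collapsing of reads to single molecules is described in the sources used here, and the counting intervals given below cover counting error only.

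In CRISPRi, a catalytically dead Cas9 carries the KRAB repressor domain to the site an sgRNA specifies, where KRAB recruits chromatin-silencing factors that dampen transcription around that site rather than of a single transcript. PROX1 is a homeobox transcription factor best known for specifying lymphatic endothelium and for roles in liver and lens, and in colorectal tumours it is known as a target of Wnt signalling. An sgRNA that slows growth becomes rarer in the pool during culture, so the readout is a relative abundance. Levels of PROX1 and of the antisense transcripts were not measured in these libraries. The files name the targets only by transcript ID, so the link to PROX1 rests on the label and on the coordinates and was not settled here. The whole sequence of 0 of the 16 sgRNAs occurred in the 35116 RefSeq promoter windows of 300 bases searched. Among these windows were 1 of PROX1-AS1 and 0 of PROX1, so the promoter of PROX1 itself was not searched. Nothing is read from this about other stretches of the locus. In the RefSeq table of GRCh38.p14 the genes PROX1 and PROX1-AS1 overlap. The files name no genome build: of 506 sgRNAs placed on chromosome 1, 48 had their sequence in a RefSeq promoter window of GRCh38.p14, and 0 of the 48 lay at the same position within 1 bp. Positions below are therefore those of the files, on chromosome 1, and were neither converted nor set against exons or introns.

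The files place the TSS of T030274 at 214156326 and that of T030275 at 214161040, which are 4714 bp apart. All 16 sgRNA sites lie downstream of the TSS of their own target, between 38 and 289 bp for T030274 and between 30 and 279 bp for T030275. With the TSSs this far apart, the sets share no site and lie in 2 separate stretches of the locus. Shown here, as deposited, are the sgRNAs called depleted (YLQ7162 and YLQ7166) and YLQ7170, which was not called but had the lowest estimate of T030275. Also shown are the sites nearest to the called ones, one of which, YLQ7167, belongs to the target T030292. The capitals mark the 12 bases at the 3′ end, the PAM-proximal part that matters most for Cas9 binding.
YLQ7161 (T030274): gcagcctcGCTCAGCTAGCC
YLQ7162 (T030274): ccctgcgaTGGCCCGGGAAG
YLQ7163 (T030274): agagcgagGAGGGACCAGCA
YLQ7165 (T030275): gtatacggGAGAAAAAGTGG
YLQ7166 (T030275): ccttcctcCACCCAAGTCGG
YLQ7167 (T030292): gagtgagcGCTCCTCCGACT
YLQ7170 (T030275): gcactatgCAAAGCGGGAGA

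Most sgRNAs of both targets were slightly rarer after screening, and a single sgRNA of each target was called depleted. For T030274 this was YLQ7162, which was close to absent after screening, while the sgRNAs on either side of it had means near their starting level. For T030275 it was YLQ7166, the most abundant of the 16, which kept about 72.5% of its starting RPM. Called here means an adjusted p below 0.05 in edgeR's quasi-likelihood test with Benjamini-Hochberg adjustment over 6587 sgRNAs. By this rule 2 of 16 sgRNAs were depleted, against 46 of all 6126 tested targeting sgRNAs (0.751%), and 0 were enriched, against 5 (0.0816%). The targets were selected on this contrast, so the shares are printed as a description and nothing is read from them. At an unadjusted p below 0.05 in edgeR, 4 of the 16 were lower and 0 higher, beside 194 lower and 172 higher of the 6126. DESeq2 called 3 of the 16 depleted and 0 enriched. Its calls over all targeting sgRNAs were not counted here, and of 461 non-targeting ones it called 1 lower and 1 higher. No member was removed by the filter on low counts, and all 16 were tested.

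**Figure D1:**
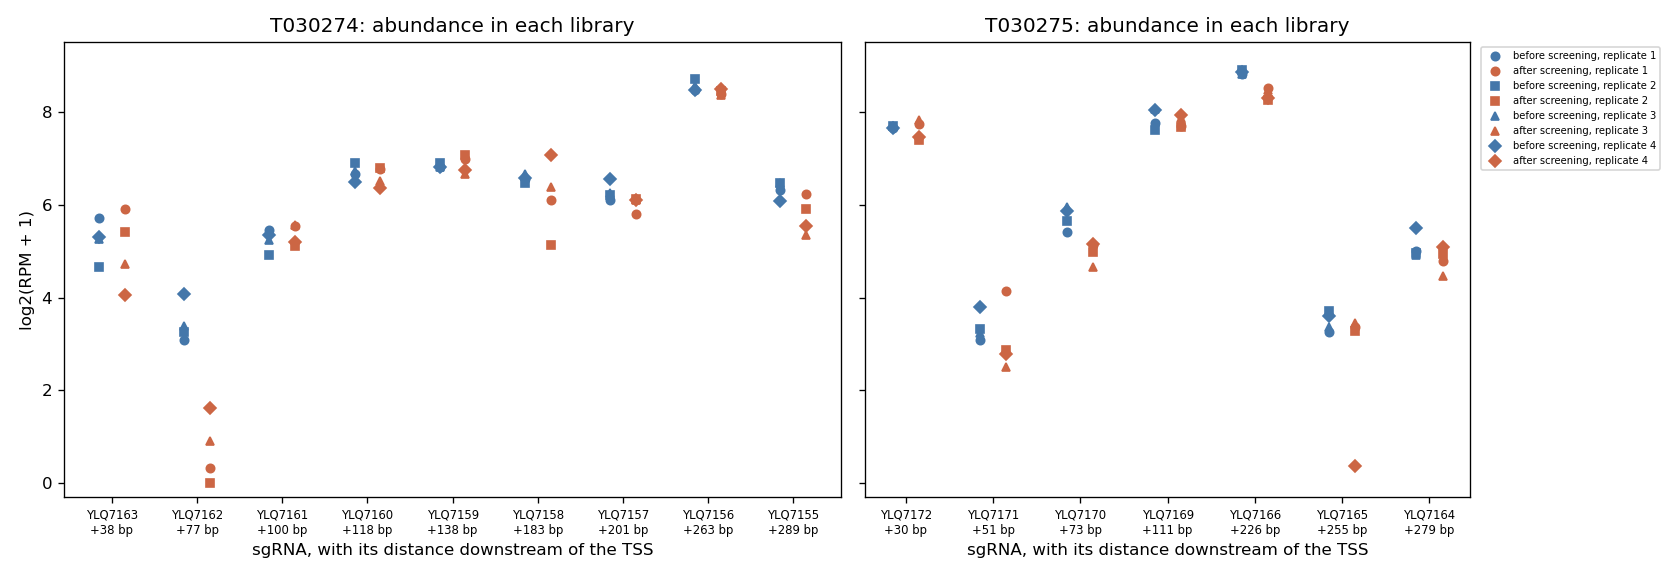
Abundance of the 16 sgRNAs in every library, as log2(RPM + 1), with 1 symbol per library (blue before screening, orange after, symbol shape for the replicate number) and sgRNAs ordered by distance downstream of the TSS. YLQ7162 went from a mean of 10.3 to 0.795 RPM, and YLQ7166 and YLQ7170 also show no overlap between the groups.

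YLQ7162 targets position 214156249, 77 bp downstream of the TSS of T030274. It had 30, 34, 33 and 61 counts before screening in replicates 1 to 4 and 1, 0, 3 and 7 counts after. In RPM these were 7.51, 8.5, 9.51 and 15.9 before, and 0.26, 0, 0.87 and 2.05 after. Every library after screening lay far below every library before, and replicate 4 was the highest of both groups. Means were 10.3 ± 3.77 RPM before and 0.795 ± 0.912 RPM after (SD over 4 libraries), and the fitted log2 fold change was -3.66 (SE 0.76). Pooled over libraries, 158 counts became 11, which is 7.52% of the starting share (95% exact binomial interval 3.68 to 13.8%). Of the tested targeting sgRNAs, 1 had a lower fold change. The lowest of 461 tested non-targeting sgRNAs, YLQ7799, stood at -2.09 (SE 0.78) from a start of 5.93 RPM, and 0 of the 461 were called in either direction by edgeR (18 lower and 24 higher at an unadjusted p below 0.05), while DESeq2 called 1 lower and 1 higher. The size of this change rests on few counts: with 1 RPM added to both means the log2 ratio was -2.66. Without before-screening replicate 4 the call was lost (edgeR adjusted p = 0.0655, against a range of 2.44e-05 to 0.265 over all alternatives), as it was with the two-tailed test of the study's methods (adjusted p = 0.134 on log2(RPM + 1) and 0.265 on RPM).

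None of the sgRNAs at the 3 sites nearest to YLQ7162 was called. YLQ7161, 23 bp away, had 43.0, 29.3, 36.9 and 39.6 RPM before and 45.7, 33.8, 46.4 and 35.7 RPM after, with overlapping groups and a log2 fold change of 0.13 (SE 0.23). YLQ7163, 39 bp away on the TSS side, had 51.8, 24.3, 37.5 and 38.8 RPM before and 58.9, 41.3, 25.5 and 15.5 RPM after. Its libraries spread widely in both groups, with higher values in replicates 1 and 2 after screening and lower ones in replicates 3 and 4, and the log2 fold change was -0.09 (SE 0.29), or -0.46 and 0.15 without after-screening replicates 1 and 4. YLQ7160, 41 bp away, stood at -0.08 (SE 0.15). On the plot of change by position, the error bars of these 3 sgRNAs and of YLQ7162 do not meet.

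The remaining sgRNAs of T030274 lie farther from the TSS. The lowest of them was the most distal, YLQ7155 at 289 bp, with 79.3, 88.0, 87.9 and 66.4 RPM before and 74.2, 59.4, 40.0 and 45.4 RPM after. Only after-screening replicate 1 reached into the range of the start, and the means were 80.4 ± 10.2 and 54.8 ± 15.3 RPM (SD over 4 libraries), with a log2 fold change of -0.54 (SE 0.19) that did not pass the test. Its neighbour YLQ7156, 26 bp away and the most abundant sgRNA of T030274, had 355, 417, 379 and 355 RPM before and 335, 350, 329 and 358 RPM after. At a log2 fold change of -0.12 (SE 0.08), its groups overlapped through replicate 4.

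YLQ7157 and YLQ7158, whose sites share 2 bases at 201 and 183 bp, had estimates of -0.24 (SE 0.17) and -0.23 (SE 0.22), with a wider spread after screening for YLQ7158. YLQ7157 had 67.3, 72.8, 74.9 and 93.4 RPM before and 55.0, 69.0, 67.6 and 67.3 RPM after. YLQ7158 had 93.1, 88.0, 101 and 94.7 RPM before and 68.0, 34.3, 83.0 and 133 RPM after, so that its libraries after screening lay both below and above all libraries before. Its estimate was 0.02 without after-screening replicate 2 and -0.59 without after-screening replicate 4. YLQ7159 at 138 bp (0.05, SE 0.13) and YLQ7160 at 118 bp stood close to 0. YLQ7159 had 111, 119, 111 and 111 RPM before and 125, 133, 101 and 106 RPM after, and YLQ7160 had 101, 119, 105 and 89.5 RPM before and 108, 110, 89.9 and 81.1 RPM after. Both sets of groups overlapped.

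YLQ7166 targets position 214160814, 226 bp downstream of the TSS of T030275. It had 453, 478, 453 and 464 RPM before screening and 368, 305, 352 and 314 RPM after. All 4 libraries after screening lay below all 4 before, with a gap wider than the range of either group. Means were 462 ± 11.5 RPM before and 335 ± 30.1 RPM after (SD over 4 libraries), and the fitted log2 fold change was -0.45 (SE 0.07). Pooled counts fell from 7078 to 4763, or to 72.6% of the starting share (95% exact binomial interval 70.0 to 75.4%). Of the tested targeting sgRNAs, 5.13% had a lower fold change. YLQ7166 had at least 1057 counts in each library. The two-tailed test of the study's methods did not call it after Benjamini-Hochberg adjustment (adjusted p = 0.11 on log2(RPM + 1) and 0.0582 on RPM, with a range of 6.87e-09 to 0.11 over all alternatives). YLQ7167 of T030292, whose site begins 14 bp away and shares 6 bases with it on the other strand as the file gives it, had a mean of 132 RPM in both groups and a log2 fold change of 0.01 (SE 0.14).

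The other site near YLQ7166 was that of YLQ7165, 29 bp away and among the rarest of the 16. It had 8.51, 12.0, 9.22 and 11.2 RPM before and 9.34, 8.66, 9.87 and 0.293 RPM after. The value of after-screening replicate 4 was a single count, the other 3 libraries lay within the starting range, and the estimate of -0.52 (SE 0.57) became -0.13 without that library. YLQ7164 at 279 bp had 31.0, 30.3, 29.4 and 44.2 RPM before and 26.5, 29.7, 21.2 and 32.8 RPM after. It was lower at every replicate number, with overlapping groups, at a log2 fold change of -0.28 (SE 0.26).

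YLQ7170 at 73 bp had the lowest estimate of T030275. It had 41.5, 49.5, 60.5 and 57.3 RPM before and 34.3, 30.6, 24.1 and 34.5 RPM after. The groups did not overlap, and the means were 52.2 ± 8.47 and 30.9 ± 4.86 RPM (SD over 4 libraries), or 59.1% of the start, with a log2 fold change of -0.74 (SE 0.23). It missed the edgeR threshold (adjusted p = 0.193) and passed that of DESeq2 (adjusted p = 0.0178), with a range of 0.0178 to 0.722 over the alternatives. Of the 16 sgRNAs, 3 (YLQ7162, YLQ7166 and YLQ7170) had all libraries after below all libraries before, a pattern held by 168 of the 6126 tested targeting sgRNAs (2.74%). Past a log2 fold change of -0.58 with an unadjusted p below 0.05 were 2 sgRNAs, YLQ7162 and YLQ7170, against 96 of the 6126 (1.57%). As with the calls, these counts come from the contrast on which the targets were selected and are a description.

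Of the sgRNAs around YLQ7170, YLQ7171, 22 bp nearer the TSS, had 7.51, 9.0, 8.35 and 12.8 RPM before and 16.6, 6.35, 4.64 and 5.85 RPM after, with replicate 1 above all starting values and the other 3 below them (log2 fold change -0.15, SE 0.51). Without after-screening replicate 1 its estimate was -0.73, near that of YLQ7170. YLQ7169 at 111 bp had 216, 194, 267 and 263 RPM before and 206, 203, 232 and 244 RPM after (-0.08, SE 0.1). YLQ7172, the site closest to the TSS at 30 bp, had 200, 208, 206 and 199 RPM before and 213, 167, 226 and 176 RPM after (-0.04, SE 0.11). The groups overlapped in all 3.

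Most estimates of both IDs were below 0. In each ID 2 sgRNAs were lower at an unadjusted p below 0.05 in edgeR, beside 194 of all 6126 tested targeting sgRNAs. Below 0 were 7 of 9 sgRNAs of T030274 and 7 of 7 of T030275, together 87.5%, beside 47.0% of all tested targeting sgRNAs and 48.8% of the non-targeting ones. The targets were selected on this contrast, so these shares are a description and nothing is read from them. The median log2 fold change was -0.12 for T030274 and -0.28 for T030275, beside 0.01 over all targeting sgRNAs (SD 0.32) and 0.00 over the non-targeting ones. Single libraries moved these medians. That of T030274 was -0.26 without before-screening replicate 2. That of T030275 was -0.50 without after-screening replicate 1, -0.18 without after-screening replicate 3, -0.13 without after-screening replicate 4 and -0.12 without before-screening replicate 4. In the last 2 cases T030274, at -0.14, was the lower of both. Without the called sgRNA the medians were -0.11 over 8 and -0.22 over 6 sgRNAs. The mean was -0.53 for T030274, far below its median, and -0.32 for T030275. The difference between the IDs was not tested.

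By replicate number, the median log2 ratio of T030274, with 1 RPM added, was -0.08, -0.11, -0.22 and -0.14 for numbers 1 to 4. That of T030275 was -0.07, -0.43, -0.37 and -0.56. Both IDs were below 0 at every number and closest to 0 at number 1, where 5 of 9 and 4 of 7 sgRNAs were lower. Of the 16 sgRNAs, 6 were lower at all 4 numbers and 0 were higher at all 4. Among the 6126 tested targeting sgRNAs these counts were 476 and 383, and among the 461 non-targeting ones 41 and 30. The targets were selected on this contrast, so the counts are a description.

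Summed over its sgRNAs, T030274 had 909, 965, 942 and 904 RPM before screening and 870, 831, 783 and 844 RPM after. T030275 had 958, 980, 1034 and 1051 RPM before and 873, 750, 870 and 808 RPM after. For both IDs every library after lay below every library before. How many of all targets have sums that separate in this way was not counted. The targets were selected on this contrast, so the separation is a description and nothing is read from it. The mean sums were 930 ± 28.7 and 832 ± 36.2 RPM for T030274 and 1006 ± 44.0 and 825 ± 58.6 RPM for T030275 (SD over 4 libraries), so that 89.5% and 82.0% of the start were left. Each sum leaned on a single abundant sgRNA, YLQ7156 with 40.5% of that of T030274 and YLQ7166 with 45.9% of that of T030275. Without the called sgRNAs both sums went to about the same share, 90.4% for T030274 (919 ± 30.7 to 831 ± 36.3 RPM) and 90.2% for T030275 (544 ± 46.3 to 490 ± 32.0 RPM). In that form the libraries of T030275 overlapped, from 503 to 587 RPM before and from 445 to 518 RPM after.

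The sgRNAs differed widely in starting abundance, by 49.1-fold from 9.4 RPM for YLQ7171 to 462 RPM for YLQ7166, around a median of 78.8 RPM (75.8 RPM over all targeting sgRNAs). They were rich in G and C, with a median of 13.5 of 20 bases against 10 over all targeting sgRNAs. T030274 ran from 13 to 16 (median 14) and T030275 from 9 to 15 (median 12). The called sgRNAs had 15 and 13. Across the 16 sgRNAs the log2 fold change correlated with distance from the TSS at Pearson's r = 0.11 and Spearman's rho = -0.34, and with G and C content at r = -0.15 and rho = -0.01, over points that share the same 8 libraries. Between the IDs the signs differed, except for rho with distance, which was negative in both. For G and C content, r was -0.35 and rho -0.68 over the 9 sgRNAs of T030274, against 0.55 and 0.56 over the 7 of T030275. For distance, r was 0.24 and rho -0.32 for T030274, against -0.33 and -0.46 for T030275. Both called sgRNAs are on the minus strand as the files give it, among 6 sgRNAs with a median of -0.16, and the 10 on the plus strand had a median of -0.20. That strand was opposite to the orientation of the oligo for 48 of 48 oligos found in promoter windows. No other oligo of the library shared the last 12 bases with any of the 16. These 12 bases followed by NGG, searched on both strands, occurred in 1 of 35116 RefSeq promoter windows of 300 bases (0.00285%) for each of YLQ7162 (ZNF275), YLQ7166 (PRTN3) and YLQ7170 (LOC124903755). Such matches were not particular to these sgRNAs. The uncalled YLQ7155 (LOC124903958), YLQ7156 (CTDSP1), YLQ7164 (IL18BP) and YLQ7165 (ECHDC1) also had 1 window each, and YLQ7157 had 2 (RNPEPL1 and WDR5-DT). The matches describe the letters and not binding.

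**Figure D2:**
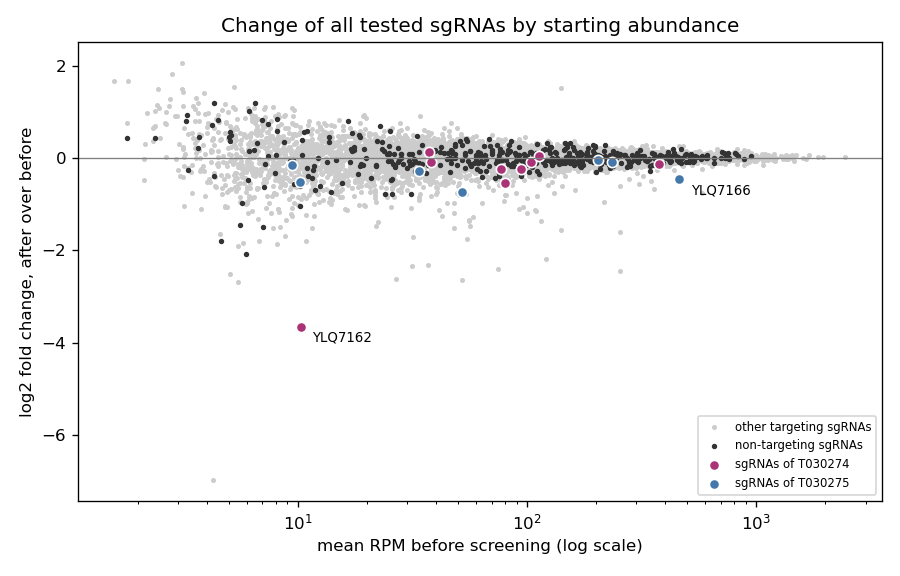
Log2 fold change of all 6587 tested sgRNAs against mean RPM before screening (log scale), with other targeting sgRNAs in grey, non-targeting ones in black, and those of T030274 and T030275 in colour. The spread widens towards low starting abundance, where YLQ7162 (10.3 RPM) lies below every non-targeting sgRNA, and narrows towards high abundance, where YLQ7166 (462 RPM) lies at the lower edge.

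The library holds 4 other targets with the same start coordinate in its gene list, T030272, T030273, T030276 and T030292, with 20 sgRNAs of which 19 were tested. Of these, 10 were below 0, the median was -0.01 and edgeR called 0 in either direction (2 lower and 0 higher at an unadjusted p below 0.05), while DESeq2 called 1 lower, YLQ7148. The largest changes among them were those of YLQ7142 of T030272 (-0.86, SE 0.67, from 6.33 ± 1.87 to 3.47 ± 2.81 RPM), YLQ7140 of T030272 (0.68, SE 0.48, from 10.2 ± 5.94 to 16.2 ± 8.72 RPM) and YLQ7148 of T030273 (-0.59, SE 0.16, from 123 ± 18.9 to 81.0 ± 17.4 RPM, SD with n = 4 each). The shared coordinate is the end of these minus-strand transcripts away from the TSS, and not every TSS is near those of the 2 IDs. That of T030272 is at 214074658 and that of T030273 at 214139626, against 214156326 for T030274, so their sgRNAs lie elsewhere. The TSS of T030292 lies 88 bp from that of T030275, and T030276 has the TSS of T030275 and 1 sgRNA, which was too rare to test. The median was -0.03 over 9 sgRNAs of T030272 and 0.05 over 8 of T030273. For T030292, the tested target close to T030275, it was -0.20 over 2 sgRNAs. Of these, YLQ7167 stood at 0.01 (SE 0.14) and YLQ7175 at -0.41 (SE 0.3, from 29.5 ± 4.54 to 21.9 ± 8.84 RPM, SD with n = 4 each), and neither was called. Farther along the chromosome, 6 neighbouring targets (T030246, T030248, T030338, T030352, T030353 and T030354) had 34 tested sgRNAs, with 15 below 0, a median of 0.03, a range of -0.43 to 0.27 and 0 calls by edgeR or DESeq2 (2 lower and 0 higher at an unadjusted p below 0.05 in edgeR).

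Targets with at least 5 tested sgRNAs were also ranked by how closely their profile over the 8 libraries, the mean log2(RPM + 1) centred per sgRNA, followed that of each ID. For T030274 the closest of 784 were T132148 on chromosome 16 (Pearson's r = 0.96), T281799 on chromosome 5 (0.96) and ENST00000438432.1 on chromosome 2 (0.94). Their median log2 fold changes were 0.04, -0.14 and -0.80, with 1, 0 and 3 sgRNAs called depleted. As a mean, a profile can follow a single sgRNA with a large change, such as YLQ7162, or YLQ2995 of T132148 (-6.98 from 4.26 RPM). For T030275 the closest were T036349 on chromosome 10 (0.92), T000790 on chromosome 1 (0.91) and T150291 on chromosome 17 (0.89). Their medians were -0.22, -0.12 and 0.00, with 0 sgRNAs called depleted in each. The profiles of T030274 and T030275 correlated at 0.80, rank 30 for the former and rank 18 for the latter. Among all 953 tested targets, 43 had at least 1 sgRNA called depleted (4.51%) and 2 had more than 1, and neither ID was among the latter.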

How the data were processed

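The authors deposited raw read counts per sgRNA, 1 file per library, with 6862 sgRNAs listed, and no other kind of value. FastQC 0.11.2, Bowtie and hg38 are listed, with no role given, in the processing notes of the submitters, and how reads were assigned to sgRNAs is not given in the sources used here. Groups and replicate numbers were taken from the sample labels. RPM is counts per 1000000 counts of a library. Counts were tested in R 4.3.3 with edgeR 4.0.16 (TMM, default low-count filter, robust quasi-likelihood fit, group as the only term), and p-values were adjusted by Benjamini-Hochberg over 6587 sgRNAs, of which 461 were non-targeting and 6126 targeting. TMM factors ran from 0.993 to 1.01, and the fitted biological coefficient of variation was 0.183. The fit was tested on simulated counts. The members and lists were chosen with earlier results of these data known. Named were every sgRNA of both IDs, those of the same start coordinate beyond 0.58 in log2 fold change or called, 6 neighbouring targets, and the 3 most alike targets per ID. Alternatives were total-count and non-targeting scaling, DESeq2 1.42.0, other count filters, other pseudocounts, a replicate block, leaving out each library, and the two-tailed test of the study's methods, run on RPM and on log2(RPM + 1). Libraries of a group differed beyond sampling noise (chi-square over degrees of freedom of 10.4 to 11.6 after screening, and 4.86 to 5.27 before it), so all 8 were kept. Figures were drawn with matplotlib 3.10.9.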

Additional observations from a re-analysis of the deposited data

Results flagged for a closer look

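In 5 of 32 groups of 4 libraries, a group being an sgRNA before or after screening, a single library stood far from the other 3, by its gap to the nearest of them relative to the whole range. Chance gives this in about 1 in 20 groups. After screening, YLQ7165 had 0.293 RPM in replicate 4, the lowest, YLQ7157 had 55.0 RPM in replicate 1, the lowest, and YLQ7171 had 16.6 RPM in replicate 1, the highest. Before screening, YLQ7159 had 119 RPM in replicate 2 and YLQ7164 had 44.2 RPM in replicate 4, both the highest.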

How the results depend on the processing

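The number of sgRNAs called depleted was 2 of 16. It was 2 as well with total-count scaling, with factors from the non-targeting sgRNAs and without a count filter, and 3 with DESeq2, which added YLQ7170. Requiring 100 counts in every library before screening left 12 of the 16 to test and gave 1, since YLQ7162 was removed. The methods' two-tailed test gave 0 on log2(RPM + 1) and 0 on RPM (4 at an unadjusted p below 0.05 in each), with adjusted p-values of 0.134 and 0.265 for YLQ7162 and 0.11 and 0.0582 for YLQ7166. At that unadjusted threshold, 17 of 461 non-targeting sgRNAs were lower and 20 higher on log2(RPM + 1), and 19 lower and 18 higher on RPM. Calls over all targeting sgRNAs were not counted for this test or for DESeq2, so nothing is read from the 4 or the 3. Leaving out each library in turn gave 1 to 2, with 1 without before-screening replicate 4, where YLQ7162 lost its call (log2 fold change -3.37, adjusted p = 0.0655). None of the 16 sgRNAs was called enriched under any of these settings. The median of T030274 ran from -0.26 (without before-screening replicate 2) to -0.10 and that of T030275 from -0.50 (without after-screening replicate 1) to -0.12 when 1 library was left out. Of 268 single-sgRNA values under the alternatives, 263 moved by less than the spread between replicates and 5 moved by more, all of YLQ7162, which ran from -4.66 (without after-screening replicate 4) to -1.41 (5 RPM added).

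With the replicate number as a block, 2 were called depleted, and the medians were -0.19 for T030274 and -0.31 for T030275. Deviations from the group means correlated at 0.0849 to 0.115 between same-numbered libraries and at -0.0582 to -0.0115 between others, so every library went best with its own number, a hint from the data and not from the design.

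Precision was limited by counts for YLQ7162, YLQ7165 and YLQ7171, which started near 10 RPM. With 4 libraries a group and a single cell line, the p-values set each change against the variation between these libraries. They say nothing about other lines or clones.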
